A study of Homo sapiens with 9 samples.

Results

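The human ATP-binding cassette (ABC) transporter family was followed gene by gene in Caco-2 cells, an established line from a human colon adenocarcinoma. Members were the protein-coding genes named in subfamilies ABCA to ABCG, other than ABCA1, each represented by its transcript entry with the most reads. The table of 27693 genes listed 44 such genes. Of these, 32 had at least 15 counts summed over the 9 libraries and are described here, and the other 12 fell under that limit. After the filter on low counts, 27 of the 32 were tested.

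Poly(A)-enriched RNA was sequenced from cells kept in medium with lipid-depleted serum, and 3 libraries were made per group. The first group had 10 µM SGA360 together with 10 µM lovastatin for 48 h. The second had 10 µM SGA315 together with the same lovastatin for 48 h, and the third had 10 µM lovastatin alone for 48 h. The series title calls both compounds selective AHR ligands; the aryl hydrocarbon receptor, AHR, is a transcription factor that binds small aromatic molecules. Lovastatin, a statin that blocks HMG-CoA reductase, was present in every library, and cells without it were not analysed here. Both comparisons against lovastatin alone used the same 3 lovastatin libraries.

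ABC proteins bind and hydrolyse ATP. Most use it to move a substrate across a membrane, as with drugs and their conjugates, lipids, bile acids, haem precursors or peptides, whereas those of subfamilies E and F lack a membrane-spanning part and act on ribosomes. In the gut, ABCB1, ABCC2 and ABCG2 sit on the apical face of enterocytes and return drugs and carcinogens to the lumen, while ABCC3 sits on the basolateral face and passes conjugates to the blood.

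Libraries held 12343139 to 16882562 counts with SGA360, 12894190 to 14747290 with SGA315 and 14141236 to 16316270 with lovastatin alone, taking each gene once. A gene at 0 could thus have had up to 3 counts, or 0.178 to 0.243 CPM (counts scaled to a common library size). This limit is on library totals, whereas the other CPM here are after TMM scaling. The spread between libraries of a group was small, with a common biological coefficient of variation of 2.16% over 14662 tested genes. Whether replicate libraries stand for separate cultures is not in the labels. The p-values are therefore measured against a spread that may be only technical. Summed epithelial marker genes, of which 8 of 10 averaged at least 1 CPM and CDX1 was at 0, reached 5658 to 6099 CPM with SGA360, 4134 to 4252 with SGA315 and 7683 to 7788 with lovastatin alone. The sums did not overlap between the groups, and most of each came from the keratins KRT8 and KRT18. Of the 9 epithelial markers tested, 1 was higher and 6 lower with SGA360 (11.1% and 66.7%, against 31.4% each of all genes). With SGA315, 3 were higher and 6 lower (33.3% and 66.7%, against 36.1% and 33.2% of all genes). Scaled to totals only, 3 were higher and 6 lower with either ligand. Of all 14662 genes, 6475 were then higher and 3136 lower with SGA360, and 6927 higher and 3619 lower with SGA315. ALPI, an alkaline phosphatase of the brush border, went the other way from the sum, with means of 9.75 CPM with SGA360, 22.6 with SGA315 and 7.58 with lovastatin alone. CDX2 and SI also had higher means with each ligand. CDX2 averaged 80.1 CPM with SGA360, 117 with SGA315 and 75.9 with lovastatin alone. SI averaged 0.847 CPM with SGA360, 1.36 with SGA315 and 0.497 with lovastatin alone. The part of these markers in the transporter results was not tested. Leukocyte markers (2 of 5 at or above 1 CPM) summed to 13.7 to 15.2 CPM with SGA360, 10.4 to 12.4 with SGA315 and 11.7 to 14.3 with lovastatin alone. Endothelial markers (2 of 3) summed to 1.68 to 2.52 CPM with SGA360, 2.50 to 3.08 with SGA315 and 1.75 to 3.08 with lovastatin alone. Fibroblast markers (2 of 5) summed to 36.7 to 39.4 CPM with SGA360, 26.6 to 29.001 with SGA315 and 51.4 to 55.0 with lovastatin alone. In bulk RNA, fewer cells that express a gene and less of its RNA per cell cannot be told apart.

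Levels between genes were compared as CPM per kilobase of transcript. The most abundant member with lovastatin alone was ABCC2, at 37.3 CPM per kilobase with SGA360, 43.1 with SGA315 and 58.1 with lovastatin alone. ABCD3, a peroxisomal importer of branched-chain acyl-CoA, had 35.3 CPM per kilobase with SGA360, 29.7 with SGA315 and 50.5 with lovastatin alone. ABCE1, which splits ribosomes after termination, had 42.1 CPM per kilobase with SGA360, 39.2 with SGA315 and 46.3 with lovastatin alone. ABCE1 had the highest mean in cells with SGA360, and ABCC2 had the highest with SGA315 and with lovastatin alone. With SGA315 the libraries of ABCC2 (42.8 to 43.4 CPM per kilobase) overlapped those of ABCB6 (39.2 to 43.7), so their order there is within the spread.

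With lovastatin alone the next members were ABCC4 at 36.3, ABCB6 at 32.4 and ABCF2 at 27.5 CPM per kilobase. The library ranges of these 6 highest members did not overlap with lovastatin alone. Those of ABCB10 (16.6 to 18.6 CPM per kilobase) and ABCF3 (16.5 to 17.2), which came next, overlapped, so their order is within the spread. The drug pumps ABCG2 and ABCB1 were far lower, at 6.99 and 1.19 CPM per kilobase with lovastatin alone. ABCA13, the longest transcript of the family, had the lowest mean, 0.00910 CPM per kilobase with lovastatin alone, but its libraries (0.00437 to 0.0151) overlapped those of ABCA12 (0.00926 to 0.0384) and ABCA10 (0.0102 to 0.0423).

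**Figure D1:**
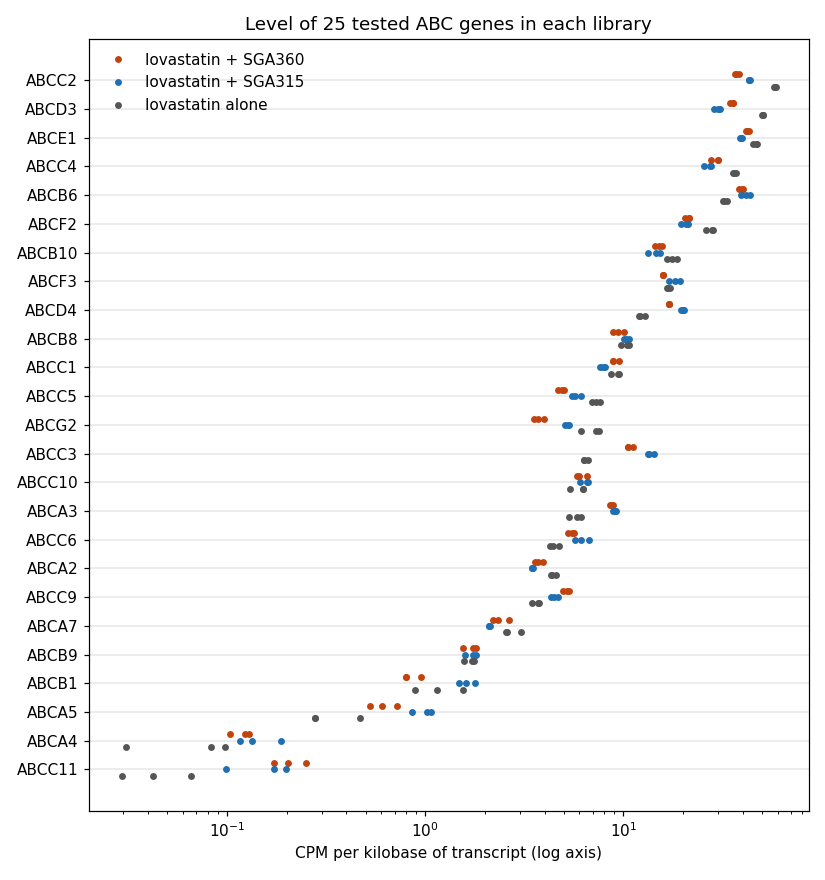
Level of 25 tested members in CPM per kilobase of transcript, on a log axis, with 1 point per library for SGA360, SGA315 and lovastatin alone. With lovastatin alone ABCC2, ABCD3 and ABCE1 are the highest of those plotted, and ABCA4 and ABCC11 the lowest.

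AHR and its partner ARNT bind DNA at a core of the letters GCGTG, so RefSeq promoter windows of GRCh38.p14 (250 bases before to 50 after a start) were searched for GCGTG on the gene's strand or CACGC, the same letters on the other strand. The motif was in 36.5% of all 35116 windows. Windows were found for 26 members, and 16 of these held the motif in at least 1 window. Counted by window, 21 of 40 member windows held it (52.5%). ABCA4, ABCB4, ABCC1 and ABCC3 were among the members with no matched window. A match is a description of the letters and no evidence of binding. The 4 windows below belong to the 3 apical pumps and to ABCA3, a member that was higher with both ligands. Each runs 5′ to 3′ on the gene's strand, with matches in capitals. They lie at chr16:2340679-2340978 (minus strand) for ABCA3, chr7:87600835-87601134 (minus) for ABCB1, chr10:99782390-99782689 (plus) for ABCC2 and chr4:88158590-88158889 (minus) for ABCG2. Where a gene had several windows, the one with the most matches is shown.
ABCA3: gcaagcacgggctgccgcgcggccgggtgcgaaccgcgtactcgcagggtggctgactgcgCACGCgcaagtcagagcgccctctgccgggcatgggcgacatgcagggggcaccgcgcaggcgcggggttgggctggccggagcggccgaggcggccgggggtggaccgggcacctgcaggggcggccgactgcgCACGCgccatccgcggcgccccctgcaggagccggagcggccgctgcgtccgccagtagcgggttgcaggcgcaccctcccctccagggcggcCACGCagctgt
ABCB1: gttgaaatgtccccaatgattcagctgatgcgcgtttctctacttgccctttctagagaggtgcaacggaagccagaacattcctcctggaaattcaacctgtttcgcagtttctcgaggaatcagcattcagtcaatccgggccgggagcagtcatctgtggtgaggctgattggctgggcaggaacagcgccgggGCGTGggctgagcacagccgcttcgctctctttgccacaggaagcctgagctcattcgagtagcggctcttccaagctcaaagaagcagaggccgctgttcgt
ABCC2: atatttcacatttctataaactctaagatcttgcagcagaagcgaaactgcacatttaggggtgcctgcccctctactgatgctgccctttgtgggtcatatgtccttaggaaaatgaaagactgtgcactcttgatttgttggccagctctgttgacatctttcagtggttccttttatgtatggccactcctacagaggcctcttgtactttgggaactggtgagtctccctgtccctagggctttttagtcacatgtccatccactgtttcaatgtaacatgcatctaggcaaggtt
ABCG2: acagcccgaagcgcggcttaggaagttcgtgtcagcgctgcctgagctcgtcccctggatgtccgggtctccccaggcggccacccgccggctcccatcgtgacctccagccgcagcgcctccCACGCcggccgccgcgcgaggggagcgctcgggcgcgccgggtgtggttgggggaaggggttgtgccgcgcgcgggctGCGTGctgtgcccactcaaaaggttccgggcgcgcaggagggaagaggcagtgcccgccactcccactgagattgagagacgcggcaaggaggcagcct
The ABCA3 window held 3 matches, whose first bases lay 189 and 54 bases before the start and 40 bases after it. In ABCB1 the single match began 53 bases before the start. In ABCG2 there were 2 matches, 127 and 49 bases before the start. The printed window of ABCC2 held none.

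Read over the whole family, about as many members moved up as down. With SGA360, 8 of 27 tested members were higher and 11 lower than with lovastatin alone at an adjusted p under 0.05 (edgeR quasi-likelihood F test, Benjamini-Hochberg over 14662 genes), a share of 70.4% against 62.8% of all genes tested (31.4% higher and 31.4% lower). With SGA315, 12 members were higher and 11 lower, a share of 85.2% against 69.3% of all genes (36.1% higher and 33.2% lower). The members' median log2 fold change was −0.08 with SGA360 (0.02 over all genes) and 0.03 with SGA315 (0.04 over all genes). The groups' CPM did not overlap for 19 members with SGA360 (70.4% of them, against 66.4% of all genes) and for 21 members with SGA315 (77.8%, against 70.4%). Summed over the 32 members, RNA was lower with either ligand after TMM scaling. The sums were 1480 ± 7.36 CPM with SGA360, 1524 ± 13.9 CPM with SGA315 and 1686 ± 3.89 CPM with lovastatin alone (SD, n = 3 each). ABCC2 alone gave 216, 250 and 337 CPM of these, in that order. The sums include the soluble members and ABCC9, which is no exporter. TMM factors were 0.943 to 0.952 for lovastatin libraries and 1.02 to 1.03 for ligand libraries, so the gap is narrower on library totals.

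The tested members had a median mean level of 36.7 CPM, against 27.1 CPM over all genes tested. Among long members, which hold the whole transporter in 1 chain, 6 of 15 tested rose and 6 fell with SGA360, and 8 rose and 6 fell with SGA315. Of the 9 short members tested, which must pair to work, 2 rose and 3 fell with SGA360, and 3 rose and 3 fell with SGA315. Of the 3 soluble members, none rose and 2 fell with SGA360, and 1 rose and 2 fell with SGA315. The background for these counts is the 31.4% higher and 31.4% lower among all genes with SGA360, and the 36.1% higher and 33.2% lower with SGA315. After totals-only scaling the long members split into 8 higher and 4 lower with SGA360 and 9 higher and 5 lower with SGA315. The short ones split into 3 higher and 3 lower with either ligand. The soluble ones split into 0 higher and 1 lower with SGA360 and 1 higher and 2 lower with SGA315. The background on that scaling is 6475 higher and 3136 lower of all 14662 genes with SGA360, and 6927 and 3619 with SGA315.

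Most of these changes were small. A log2 change of at least 0.5 was reached by 9 called members with SGA360 (33.3% of the 27, against 19.0% of all genes) and by 7 with SGA315 (25.9%, against 27.6%). Scaling to library totals without TMM moved the median of all genes to 0.14 with SGA360 and 0.16 with SGA315. The members called with SGA360 then split into 11 higher and 8 lower, against 6475 higher and 3136 lower of all 14662 genes. Changes below are those after TMM scaling, given as log2 fold changes ± SE.

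Among the 3 apical drug pumps, ABCC2 and ABCG2 were lower with both ligands, while the direction of ABCB1 differed by ligand. ABCC2, which exports glucuronide and glutathione conjugates such as those of bilirubin, had 215, 212 and 222 CPM with SGA360, 249, 251 and 252 CPM with SGA315 and 341, 339 and 333 CPM with lovastatin alone. All 6 ligand libraries were lower than every lovastatin library, and those with SGA360 were the lowest. The log2 fold change was −0.64 ± 0.0279 with SGA360 (adjusted p = 6.69e-31) and −0.43 ± 0.0277 with SGA315 (adjusted p = 2.80e-22). ABCG2, the breast cancer resistance protein that pumps urate and many drugs, had 15.8, 17.8 and 16.7 CPM with SGA360, 23.5, 22.6 and 23.9 CPM with SGA315 and 27.5, 33.7 and 32.7 CPM with lovastatin alone. Its 3 groups were likewise separate, with SGA360 lowest and lovastatin alone highest. ABCG2 changed by −0.90 ± 0.0711 with SGA360 (adjusted p = 6.39e-18) and by −0.42 ± 0.0676 with SGA315 (adjusted p = 1.24e-07), so that its level with SGA360 was 1.86-fold lower than with lovastatin alone.

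ABCB1, the multidrug pump P-glycoprotein, had 3.74, 4.40 and 3.70 CPM with SGA360, 6.91, 7.43 and 8.25 CPM with SGA315 and 7.20, 4.13 and 5.32 CPM with lovastatin alone. The SGA315 libraries lay above all 3 SGA360 libraries, while the lovastatin libraries were widely spread and overlapped both ligand groups. Against lovastatin alone ABCB1 changed by −0.49 ± 0.152 with SGA360 (adjusted p = 0.00385) and by 0.42 ± 0.134 with SGA315 (adjusted p = 0.00424). Each call rested on 1 lovastatin library: without replicate 1 the change with SGA360 was −0.28 (adjusted p = 0.148), and without replicate 2 that with SGA315 was 0.26 (adjusted p = 0.0917).

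**Figure D2:**
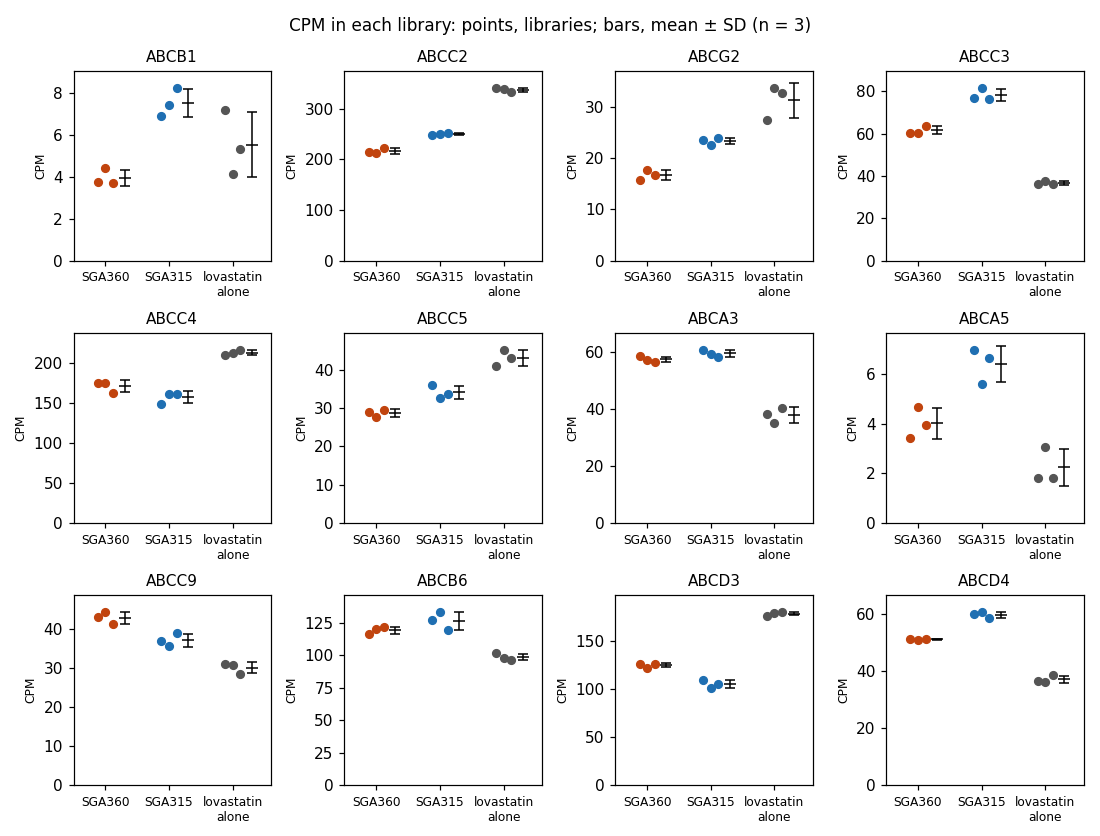
CPM in each library for 12 members of different roles, in panels with SGA360, SGA315 and lovastatin alone from left to right, bars for the mean ± SD (n = 3) and each y axis starting at 0. ABCC2, ABCG2 and ABCD3 are lower in all ligand libraries than with lovastatin alone, ABCC3, ABCD4 and ABCA3 are higher in all of them, and ABCB1 separates SGA360 from SGA315 only.

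The other exporters of subfamily C went in both directions. ABCC3 (MRP3), the basolateral exporter of bile acids and glucuronides, had 60.5, 60.5 and 63.8 CPM with SGA360, 76.9, 81.6 and 76.3 CPM with SGA315 and 36.1, 37.8 and 36.2 CPM with lovastatin alone. The 3 groups were separate, with SGA315 highest. Its log2 fold change was 0.74 ± 0.0485 with SGA360 (adjusted p = 7.01e-22) and 1.09 ± 0.0470 with SGA315 (adjusted p = 1.90e-31). The rise with SGA315 was 2.13-fold. In the same libraries the apical ABCC2 was lower and the basolateral ABCC3 higher under both ligands.

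ABCC4 (MRP4), which exports cyclic nucleotides and prostaglandins, had 175, 175 and 163 CPM with SGA360, 149, 161 and 161 CPM with SGA315 and 209.7, 212 and 216 CPM with lovastatin alone. All ligand libraries were below all lovastatin libraries, with changes of −0.31 ± 0.0321 for SGA360 (adjusted p = 3.30e-13) and −0.44 ± 0.0329 for SGA315 (adjusted p = 3.28e-19). ABCC5 (MRP5), another exporter of cyclic nucleotides, had 28.9, 27.6 and 29.6 CPM with SGA360, 36.1, 32.7 and 33.7 CPM with SGA315 and 41.1, 45.2 and 43.2 CPM with lovastatin alone. Its groups were separate, with SGA360 lowest, at −0.59 ± 0.0562 (adjusted p = 1.32e-14) for SGA360 and −0.33 ± 0.0552 (adjusted p = 2.59e-07) for SGA315. These values hold for the entry with the most reads, 4675 counts. A further ABCC5 entry with 1616 counts was not lower with either ligand, at 12.1 ± 0.85 CPM with SGA360, 13.4 ± 0.785 with SGA315 and 11.1 ± 0.932 with lovastatin alone (SD, n = 3 each), and was not tested. In that entry the SGA315 libraries were above the lovastatin libraries, and the SGA360 libraries overlapped them. ABCC1 (MRP1), an exporter of glutathione conjugates, had 62.1, 58.1 and 58.3 CPM with SGA360, 49.7, 51.9 and 53.03 CPM with SGA315 and 62.04, 61.4 and 56.9 CPM with lovastatin alone. Only the SGA315 libraries were low: the change was −0.01 ± 0.0450 with SGA360 (adjusted p = 0.829) and −0.22 ± 0.0470 with SGA315 (adjusted p = 3.09e-05). With totals-only scaling these became 0.10 with SGA360 (adjusted p = 0.0417) and −0.10 with SGA315 (adjusted p = 0.0507).

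ABCC9, the sulfonylurea receptor subunit of some ATP-sensitive potassium channels and no exporter, had 43.2, 44.3 and 41.3 CPM with SGA360, 36.9, 35.6 and 38.96 CPM with SGA315 and 30.95, 30.8 and 28.6 CPM with lovastatin alone. Its groups were separate, with SGA360 highest and lovastatin alone lowest, and it changed by 0.52 ± 0.0553 with SGA360 (adjusted p = 1.08e-12) and by 0.30 ± 0.0578 with SGA315 (adjusted p = 5.06e-06). ABCC9 had a further transcript entry with 1079 counts, against 4901 for the one used. That entry changed by 0.83 ± 0.109 with SGA360 (adjusted p = 6.75e-10) and by 0.17 ± 0.123 with SGA315 (adjusted p = 0.228).

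ABCC6, linked to ATP release and to pseudoxanthoma elasticum, averaged 31.4 ± 1.05 CPM with SGA360, 35.3 ± 2.85 with SGA315 and 25.7 ± 1.30 with lovastatin alone. The gene rose by 0.29 ± 0.0630 with SGA360 (adjusted p = 6.74e-05) and by 0.46 ± 0.0624 with SGA315 (adjusted p = 1.51e-09). Its near-identical pseudogene ABCC6P1 had 2317 counts against 4090 for ABCC6, and rose by 1.07 ± 0.0845 with SGA360 and 1.14 ± 0.0850 with SGA315, so the share of reads from each is uncertain. A further ABCC6 entry, with 317 counts and no test, averaged 2.02 ± 0.397 CPM with SGA360, 2.59 ± 0.283 with SGA315 and 2.54 ± 0.166 with lovastatin alone, with no rise in either ligand group beyond the spread. ABCC10 (MRP7), a drug exporter, averaged 30.9 ± 1.93 CPM with SGA360, 32.2 ± 1.45 with SGA315 and 30.1 ± 2.51 with lovastatin alone. It did not pass the test, at 0.05 ± 0.0621 with SGA360 and 0.10 ± 0.0627 with SGA315. It was called after totals-only scaling, at 0.16 with SGA360 (adjusted p = 0.0218) and 0.22 with SGA315 (adjusted p = 0.00133).

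ABCC11 (MRP8), known for its role in earwax type, was near the detection limit. It had 1.15, 0.927 and 0.786 CPM with SGA360, 0.789, 0.911 and 0.454 CPM with SGA315 and 0.135, 0.300 and 0.195 CPM with lovastatin alone, from 45 counts in all with SGA360, 31 with SGA315 and 9 with lovastatin alone. Every ligand library was above every lovastatin library, and the changes were 2.18 ± 0.460 with SGA360 (adjusted p = 2.52e-05) and 1.77 ± 0.503 with SGA315 (adjusted p = 0.00114). The gene overlaps LONP2, which had 9351 counts and changed by 0.11 ± 0.0455 with SGA360 and 0.21 ± 0.0456 with SGA315. The strand setting of the counting is not given, so reads of the pair cannot be told apart.

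In subfamily A, whose members mostly move lipids, 2 of 5 tested members rose and 2 fell with SGA360, and 3 rose and 2 fell with SGA315 (4 and 5 of the 5 called, against 62.8% and 69.3% of all genes). With totals-only scaling 2 rose and 0 fell with SGA360, and the counts with SGA315 stayed at 3 and 2. All 14662 genes then gave 6475 higher and 3136 lower with SGA360, and 6927 higher and 3619 lower with SGA315. ABCA3, which loads phospholipids into the lamellar bodies of lung cells, had 58.6, 57.3 and 56.8 CPM with SGA360, 60.8, 59.6 and 58.5 CPM with SGA315 and 38.4, 35.1 and 40.5 CPM with lovastatin alone. Every ligand library was above every lovastatin library, and the ligand groups overlapped. ABCA3 rose by 0.60 ± 0.0494 with SGA360 (adjusted p = 4.67e-17) and by 0.65 ± 0.0498 with SGA315 (adjusted p = 1.16e-18). ABCA5, a lipid transporter of lysosomes and late endosomes, had 3.44, 4.69 and 3.93 CPM with SGA360, 6.97, 5.61 and 6.66 CPM with SGA315 and 1.82, 3.08 and 1.82 CPM with lovastatin alone. The groups were separate, with SGA315 highest, and the rise was 0.87 ± 0.187 with SGA360 (adjusted p = 4.56e-05) and 1.54 ± 0.171 with SGA315 (adjusted p = 2.37e-12). The rise with SGA315 was 2.91-fold.

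ABCA2, an endosomal and lysosomal lipid transporter best known in brain, averaged 30.2 ± 1.30 CPM with SGA360, 28.01 ± 0.265 with SGA315 and 35.6 ± 1.13 with lovastatin alone (SD, n = 3 each, as for all such means). It was lower with both ligands, at −0.23 ± 0.0567 with SGA360 (adjusted p = 0.000311) and −0.34 ± 0.0587 with SGA315 (adjusted p = 5.32e-07). The change with SGA360 was −0.12 under totals-only scaling (adjusted p = 0.0646). ABCA7, a phospholipid transporter linked to Alzheimer's disease risk, averaged 16.3 ± 1.52 CPM with SGA360, 14.4 ± 0.128 with SGA315 and 18.5 ± 1.84 with lovastatin alone. Its change with SGA315 was −0.37 ± 0.0831 (adjusted p = 8.77e-05). With SGA360 its change was −0.18 ± 0.0793 (adjusted p = 0.041) and its libraries overlapped those with lovastatin alone. That call was lost with DESeq2 (adjusted p = 0.106), with totals-only scaling (0.462), without lovastatin replicate 1 (0.28) and without SGA360 replicate 2 (0.0986) or 3 (0.123).

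ABCA4, the retinoid transporter of photoreceptors, had 0.904, 0.753 and 0.944 CPM with SGA360, 0.855, 0.981 and 1.36 CPM with SGA315 and 0.606, 0.225 and 0.713 CPM with lovastatin alone. Libraries of either ligand were above those with lovastatin alone. The change was 0.70 ± 0.380 with SGA360 (adjusted p = 0.101) and 0.99 ± 0.368 with SGA315 (adjusted p = 0.0138). The call with SGA315 was lost with DESeq2 (adjusted p = 0.0617), without lovastatin replicate 2 (0.119) and without SGA315 replicate 3 (0.09).

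The short members of subfamily B work in pairs, most of them in mitochondria. ABCB6, a porphyrin transporter that also carries the Langereis blood group, had 116, 120.1 and 121 CPM with SGA360, 127, 133 and 119 CPM with SGA315 and 102, 97.8 and 96.5 CPM with lovastatin alone. Every ligand library was above every lovastatin library, with rises of 0.27 ± 0.0373 with SGA360 (adjusted p = 2.77e-09) and 0.36 ± 0.0374 with SGA315 (adjusted p = 2.64e-13).

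ABCB10, a mitochondrial inner membrane protein needed for haem synthesis, averaged 58.2 ± 2.17 CPM with SGA360, 55.6 ± 4.04 with SGA315 and 67.9 ± 3.87 with lovastatin alone. Every ligand library was below every lovastatin library, at −0.22 ± 0.0465 with SGA360 (adjusted p = 2.75e-05) and −0.28 ± 0.0476 with SGA315 (adjusted p = 3.50e-07). ABCB8, another mitochondrial member, averaged 23.4 ± 1.54 CPM with SGA360, 25.7 ± 0.777 with SGA315 and 25.5 ± 1.24 with lovastatin alone. It did not pass the test, at −0.12 ± 0.0657 with SGA360 and 0.01 ± 0.0657 with SGA315. Without SGA360 replicate 1 or lovastatin replicate 1 its change with SGA360 was called, at −0.18 (adjusted p = 0.0299) and −0.17 (adjusted p = 0.039). ABCB9, a lysosomal peptide transporter, averaged 5.999 ± 0.460 CPM with SGA360, 6.03 ± 0.396 with SGA315 and 5.93 ± 0.374 with lovastatin alone. Its changes of 0.01 ± 0.125 with SGA360 and 0.03 ± 0.127 with SGA315 were not called. It overlaps OGFOD2, which had more reads.

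In subfamily D the peroxisomal ABCD3 and the lysosomal ABCD4 went opposite ways. ABCD3 had 126, 122 and 126 CPM with SGA360, 109, 101 and 106 CPM with SGA315 and 176, 179 and 179.7 CPM with lovastatin alone. The 3 groups were separate, with SGA315 lowest, and the changes were −0.52 ± 0.0326 with SGA360 (adjusted p = 1.79e-22) and −0.76 ± 0.0339 with SGA315 (adjusted p = 1.24e-30). ABCD4, which helps vitamin B12 leave the lysosome, had 51.2, 50.997 and 51.3 CPM with SGA360, 60.2, 60.6 and 58.6 CPM with SGA315 and 36.6, 36.02 and 38.6 CPM with lovastatin alone. Its order was the reverse, with SGA315 highest, and it rose by 0.46 ± 0.0493 with SGA360 (adjusted p = 9.27e-13) and by 0.69 ± 0.0486 with SGA315 (adjusted p = 2.04e-20).

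Among the soluble members, ABCE1 had 164, 169 and 163 CPM with SGA360, 155, 154 and 153 CPM with SGA315 and 184, 176 and 184 CPM with lovastatin alone. The ligand groups were below lovastatin alone, with changes of −0.14 ± 0.0310 for SGA360 (adjusted p = 0.000125) and −0.24 ± 0.0316 for SGA315 (adjusted p = 7.20e-10). Its change with SGA360 became −0.02 under totals-only scaling (adjusted p = 0.569). ABCF2, a ribosome-associated member, averaged 74.8 ± 1.95 CPM with SGA360, 72.7 ± 2.80 with SGA315 and 97.4 ± 4.18 with lovastatin alone. It changed by −0.38 ± 0.0397 with SGA360 (adjusted p = 6.26e-13) and −0.42 ± 0.0406 with SGA315 (adjusted p = 1.17e-14). Most of its reads also count for the readthrough gene ABCF2-H2BK1, which changed by −0.39 ± 0.0433 with SGA360 and −0.44 ± 0.0443 with SGA315. ABCF3, a further member of this kind, averaged 41.5 ± 0.134 CPM with SGA360, 47.7 ± 3.09 with SGA315 and 44.1 ± 0.927 with lovastatin alone. Its change was −0.09 ± 0.0512 with SGA360 (adjusted p = 0.128) and 0.11 ± 0.0507 with SGA315 (adjusted p = 0.0472), a call lost in 13 alternatives, with adjusted p-values of 0.0788 to 0.285.

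**Figure D3:**
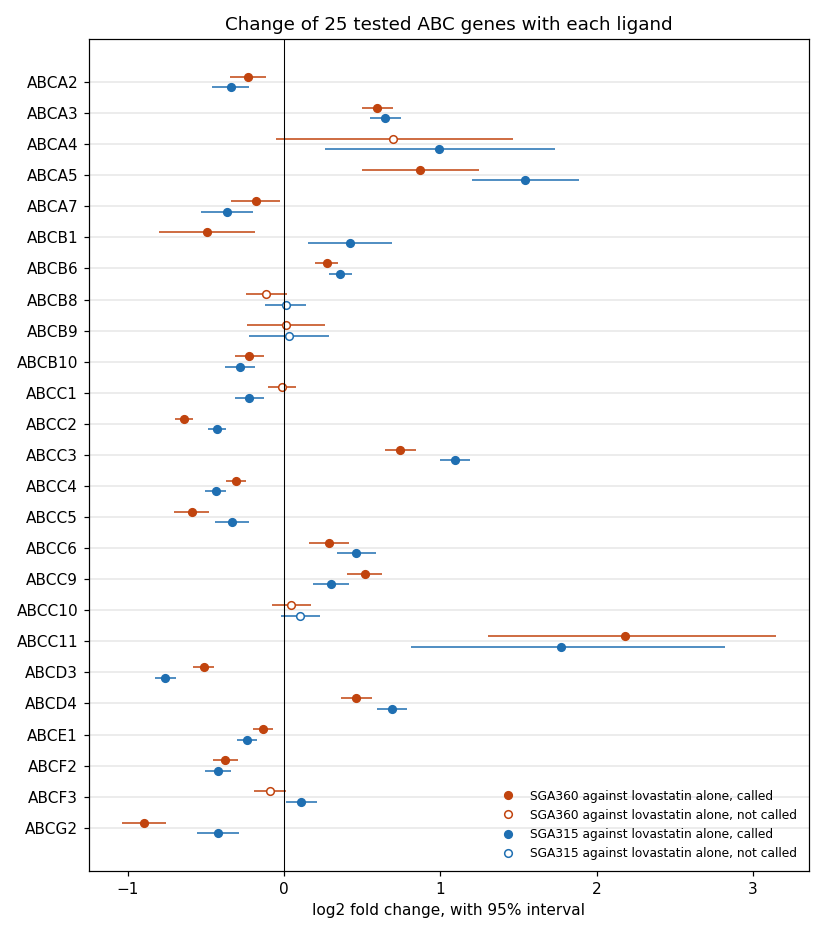
Log2 fold change of 25 tested members with SGA360 and with SGA315, both against lovastatin alone, with 95% intervals; filled points are called at an adjusted p under 0.05. ABCC11, ABCA5, ABCC3 and ABCA3 lie to the right of 0 and ABCG2, ABCC2, ABCD3 and ABCC5 to the left for both ligands, which share the lovastatin libraries.

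The pair of ligands was compared at matched dose and time, and this was the only pair. Between SGA360 and SGA315, 5 members were higher and 11 lower with SGA360 (59.3% called, against 42.7% of all genes, with 21.8% higher and 20.9% lower), and 11 did not pass the test. The members' median log2 difference was −0.06, against −0.01 over all genes. The groups' CPM did not overlap for 17 members (63.0%, against 49.2% of all genes). A difference of at least 0.5 was reached by 2 called members, ABCB1 and ABCA5 (7.41%, against 6.68% of all genes).

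ABCB1 differed by −0.92 ± 0.143 between SGA360 and SGA315 (adjusted p = 2.00e-07), that is, 1.89-fold lower with SGA360, and the difference kept its direction and its call in every alternative run. ABCA5 differed by −0.67 ± 0.146 (adjusted p = 0.000115) and ABCG2 by −0.48 ± 0.0760 (adjusted p = 3.38e-07), both lower with SGA360. ABCC3, ABCC5, ABCD4 and ABCC2 were also lower with SGA360 than with SGA315, at −0.35, −0.26, −0.23 and −0.21 on the log2 scale. ABCD3, ABCC9, ABCC1, ABCC4 and ABCE1 were higher with SGA360, at 0.25, 0.21, 0.21, 0.13 and 0.10.

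The 3 apical pumps were thus all lower with SGA360 than with SGA315, as was the basolateral ABCC3. The call of ABCC4 was lost without SGA315 replicate 1 (adjusted p = 0.053) and that of ABCE1 without SGA360 replicate 2 (adjusted p = 0.0525). ABCC9 differed by 0.66 ± 0.106 in its further transcript entry (adjusted p = 3.36e-07). ABCF3 was lower with SGA360, at −0.20 ± 0.0507 (adjusted p = 0.000917). The calls of ABCB6 (−0.09 ± 0.0360, adjusted p = 0.0448) and ABCC6 (−0.17 ± 0.0592, adjusted p = 0.0133) were lost in several alternatives, among them DESeq2 (adjusted p = 0.189 for ABCB6 and 0.0942 for ABCC6).

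For the 11 members with no call between the ligands the data bound the difference to varying degrees. It was narrow for ABCA3 (95% interval −0.14 to 0.04 on the log2 scale), ABCF2 (−0.04 to 0.13) and ABCB10 (−0.04 to 0.16). ABCC10 (−0.18 to 0.07), ABCA2 (−0.01 to 0.23), ABCA7 (0.02 to 0.35), ABCB8 (−0.26 to 0.01) and ABCB9 (−0.27 to 0.23) had wider intervals. The intervals are not adjusted for the number of genes, so that of ABCA7 left out 0 although its adjusted p was 0.0693. Without SGA360 replicate 3 ABCA7 was called higher with SGA360, at 0.23 (adjusted p = 0.0344). The least expressed were bounded only loosely, as with ABCA4 (−0.94 to 0.35) and ABCC11 (−0.26 to 1.09). A p that misses the threshold does not show that the ligands act alike on these genes.

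**Figure D4:**
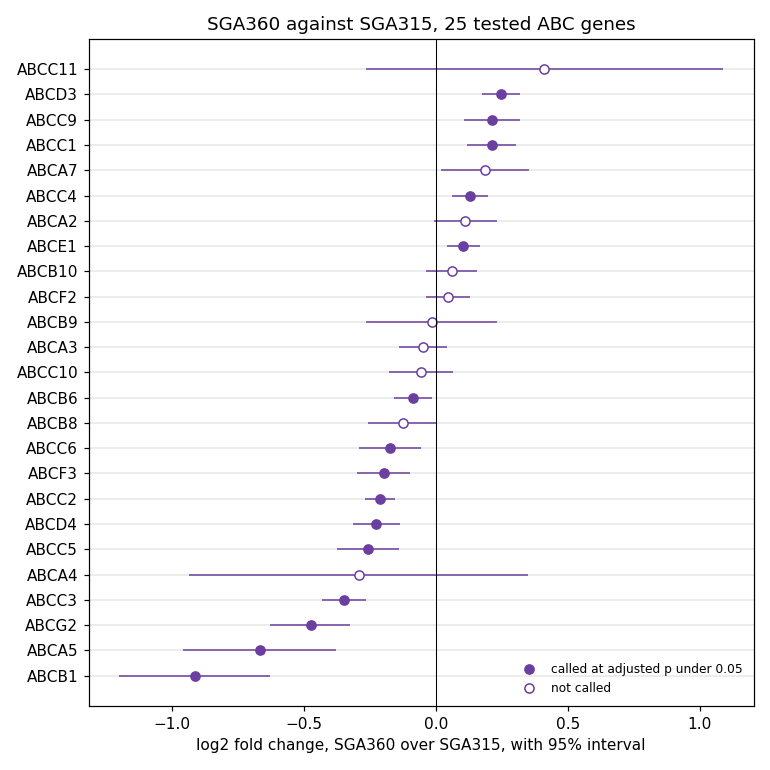
Log2 difference between SGA360 and SGA315 for 25 tested members, with 95% intervals. Values left of 0 are lower with SGA360, and filled points are called. ABCB1 lies farthest to the left and ABCA5 next, while the intervals of ABCA4 and ABCC11 are the widest.

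Of the 32 members, 5 were too low to be tested. ABCA6, a neighbour of ABCA5 in a chromosome 17 cluster of lipid transporters, had 12 counts with SGA360, 34 with SGA315 and 10 with lovastatin alone. Its SGA315 sum was the highest. Fitted without the filter on low counts, it changed by 1.74 with SGA315 (adjusted p = 0.0014) and by 0.15 with SGA360 (adjusted p = 0.906), and differed by −1.59 between SGA360 and SGA315 (adjusted p = 0.0045). ABCA10, of the same cluster, had 6 counts with SGA360, 5 with SGA315 and 8 with lovastatin alone. ABCA12, a lipid transporter of skin, had 7 with SGA360, 7 with SGA315 and 6 with lovastatin alone. ABCA13 had 5 with SGA360, 4 with SGA315 and 7 with lovastatin alone. ABCB4, the phosphatidylcholine floppase of bile, had 3 counts with SGA360, 8 with SGA315 and 9 with lovastatin alone, and overlaps CROT. Without the filter none of these 4 was called in any comparison.

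The 12 genes below 15 counts in all 9 libraries included transporters well known in gut and liver. ABCG5 had 1 count in all and ABCG8 had 2; together they form the sterol exporter of enterocytes and hepatocytes. ABCG1, a cholesterol exporter, had 4 counts, and ABCB11, the bile salt export pump, had 1. ABCA9 had 13 counts, ABCB5 11, ABCG4 11, ABCC12 4, ABCA8 2, ABCC8 1 and ABCD2 0. Changes in these genes were not detectable at this depth. ABCF1, which acts in translation initiation, was listed at 0 in every library. Its neighbours were also low: of 126 protein-coding genes listed between HLA-F and HLA-DPB1 on chromosome 6, 84 (66.7%) were at 0 in all libraries, against 123 of 874 (14.1%) on the rest of that chromosome. The tubulin gene TUBB, in the same stretch and used by every cell, had 0 to 5 counts per library. A value of 0 there is therefore given only as listed.

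The ABC proteins with other names that were looked up were CFTR, TAP1 and TAP2. CFTR, the chloride channel of subfamily C, was the 1 tested, at 190.4 ± 5.19 CPM with SGA360, 115 ± 4.61 with SGA315 and 136 ± 4.12 with lovastatin alone (SD, n = 3 each). It changed by 0.48 ± 0.0330 with SGA360 (adjusted p = 5.74e-21), by −0.24 ± 0.0357 with SGA315 (adjusted p = 1.71e-08), and by 0.72 ± 0.0339 between SGA360 and SGA315 (adjusted p = 1.97e-28). The peptide transporters TAP1 and TAP2 lie in the chromosome 6 stretch above and had too few counts to test.

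Of 18 transcription factors known to act on ABC genes, 16 were tested. With SGA360, 9 were higher and 4 lower than with lovastatin alone (81.2% called, against 62.8% of all genes), and with SGA315, 9 were higher and 5 lower (87.5%, against 69.3%). Scaled to totals only, 10 were higher and 3 lower with SGA360, and 12 higher and 2 lower with SGA315. On that scaling all 14662 genes also leaned upward, with 6475 higher and 3136 lower for SGA360, and 6927 and 3619 for SGA315. The list's median log2 fold change was 0.16 with SGA360 and 0.18 with SGA315. HNF4A, a hepatic and intestinal regulator of transporter genes, changed by −0.77 ± 0.0281 with SGA360 (adjusted p = 5.16e-35) and by −0.06 ± 0.0271 with SGA315 (adjusted p = 0.0491). The sign with SGA315 turned under totals-only scaling, to 0.06 (adjusted p = 0.0326). NFE2L2, the oxidative stress factor NRF2 that acts on MRP genes, changed by −0.47 ± 0.0386 with SGA360 (adjusted p = 2.54e-17) and by −0.29 ± 0.0384 with SGA315 (adjusted p = 6.08e-10). PPARA, a fatty acid receptor, rose by 0.51 ± 0.0600 with SGA360 (adjusted p = 3.37e-11) and by 0.92 ± 0.0576 with SGA315 (adjusted p = 6.97e-23). The RNA of AHR itself changed by −0.18 ± 0.0412 with SGA360 (adjusted p = 9.82e-05) and by −0.65 ± 0.0444 with SGA315 (adjusted p = 6.12e-21). With totals-only scaling its change with SGA360 was −0.07 (adjusted p = 0.144).

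Solute carriers that share substrates with ABC transporters were tested for 12 of 17 genes, with 3 higher and 4 lower with SGA360 (58.3% called, against 62.8% of all genes), and 5 higher and 6 lower with SGA315 (91.7%, against 69.3%). Scaled to totals only, 5 were higher and 4 lower with SGA360, against 6475 higher and 3136 lower of all 14662 genes. The list's median was −0.08 with SGA360 and −0.09 with SGA315. SLCO2B1, an intestinal uptake carrier of organic anions including statins, rose by 0.87 ± 0.0326 with SGA360 (adjusted p = 1.31e-34) and by 1.11 ± 0.0322 with SGA315 (adjusted p = 4.08e-41). SLC16A1, a monocarboxylate carrier, changed by −0.72 ± 0.0310 with SGA360 (adjusted p = 3.31e-31) and by −0.83 ± 0.0317 with SGA315 (adjusted p = 2.49e-34). Among partners of ABC proteins, 17 of 18 were tested, with 3 higher and 7 lower with SGA360 (58.8% called, against 62.8% of all genes), and 4 higher and 8 lower with SGA315 (70.6%, against 69.3%). Scaled to totals only, 6 were higher and 4 lower with SGA360, and 6 higher and 7 lower with SGA315. For all 14662 genes these counts were 6475 and 3136 with SGA360, and 6927 and 3619 with SGA315. The median was −0.06 with SGA360 and −0.18 with SGA315. NHERF1 and EZR, which anchor ABCC2 and CFTR at the apical membrane, changed by −0.47 ± 0.0289 (adjusted p = 4.16e-23) and −0.28 ± 0.0283 (adjusted p = 1.15e-13) with SGA360, and by −0.55 ± 0.0294 (adjusted p = 1.70e-26) and −0.59 ± 0.0291 (adjusted p = 3.59e-28) with SGA315. ABCC2 was also lower with each ligand than with lovastatin alone, whereas CFTR was higher with SGA360 and lower with SGA315. The 7 partners lower with SGA360 included NHERF1 and EZR, but not RDX or NHERF2. RDX averaged 203 CPM with SGA360, 161 with SGA315 and 195 with lovastatin alone. NHERF2 averaged 19.8 CPM with SGA360, 14.5 with SGA315 and 19.5 with lovastatin alone. A link between the partners and the pumps was not tested.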

How the data were processed

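Poly(A) RNA-seq of Caco-2 cells gave 9 libraries, grouped by the labels. The authors deposited counts of reads for each RefSeq transcript, whole and without normalisation, per the file headers and values. The submitters' processing notes name TopHat2 2.0.13, HTSeq 0.5.4p3 and hg19. The strand setting and the annotation release were not given in the sources used here. Of 65325 entries, 414 could not be named (0.224% of counts) and were left out of totals and tests. Transcripts of a gene repeat its reads (all entries summed to 2.97 times 1 entry per gene), so the entry with the highest total stood for each gene, and 43 genes from 23 sets with identical counts were dropped. All library columns were used.

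Counts were fitted in edgeR 4.0.16 (R 4.3.3) after filterByExpr (at least 10 counts, and 15 in total) and TMM scaling, with all 9 libraries and 1 coefficient per group, by the quasi-likelihood F test. Adjustment was by Benjamini-Hochberg across 14662 genes, and adjusted p-values come from this fit where no other is given. CPM are counts scaled by TMM. Limits for a count of 0 are instead on library totals and cover counting error only. Transcript length, and coding length in place of protein length, came from GENCODE 29, and promoter windows from RefSeq. Because strand is not stated, reads of overlapping genes are uncertain, which also touches ABCE1 (ANAPC10), ABCC10 (DLK2) and ABCB1 (RUNDC3B).

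Members are named with counts or CPM, and 2 tested members, kept in all counts and sums over the family, are not reported here. Values in every library are given for members called at a log2 change of at least 0.5 in any comparison, and for others picked for their role, where they reached 15 counts. The members and gene lists were chosen with earlier results of these data known. Up to 4 genes a list were named by smallest p. Further transcript entries of ABCC5 and ABCC6 were singled out after their values were seen. So were ALPI, CDX2 and SI among the markers, and NHERF2 and RDX among the partners. Replicate pairs of a group differed by more than counting noise (chi-square per degree of freedom 1.36 to 2.39). The alternatives were RLE and totals-only scaling, DESeq2 1.42.0, no filter, a replicate block, the compared groups only, the lowest accession per gene, and each library left out.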

Additional observations from a re-analysis of the deposited data

Results flagged for a closer look

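ABCB1, which encodes the drug pump P-glycoprotein, is listed because its response differed between the ligands: every SGA315 library was above every SGA360 library. The log2 difference between SGA360 and SGA315 was −0.92 (edgeR quasi-likelihood F test, adjusted p = 2e-07). It ranged from −1.01 to −0.85 over 16 alternatives, each called. The change against lovastatin alone was −0.49 with SGA360 and 0.42 with SGA315, and the 3 lovastatin libraries, at 7.20, 4.13 and 5.32 CPM, overlapped both. No cause was tested.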

How the results depend on the processing

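Each of the 27 tested members was recomputed in 3 comparisons under 16 alternatives. Of the 1295 values obtained, 1245 kept their side of the threshold, 43 lost the call and 6 gained it. The remaining 1 reversed with a call: ABCC1 with SGA360 was 0.10 when scaled to totals only. The 1245 include values that changed sign but were called in neither fit. ABCF3 with SGA360, for example, was −0.09 in the main fit and at most 0.03 in the alternatives. Counts of called members stayed within 1.5 times of those reported. Leaving out each library gave 8 higher and 10 to 12 lower with SGA360, 10 to 12 higher and 11 lower with SGA315, and 4 to 6 higher and 9 to 12 lower between SGA360 and SGA315. With a replicate block, the counts were 8 higher and 11 lower with SGA360, 12 higher and 11 lower with SGA315, and 5 higher and 11 lower between SGA360 and SGA315. Same-numbered libraries deviated together only weakly, with correlations of 0.016 to 0.090, against −0.064 to 0.030 for different numbers. The main fit did not pair libraries by number, and whether the numbers mark a shared step was not tested. With the block 4685 genes of all those tested were higher and 4657 lower with SGA360, against 4606 and 4605 without it. Depth limited ABCA4, ABCC11 and the 5 untested members, where few counts stood behind each value. Of the lost calls, 13 belonged to ABCF3 with SGA315 and 11 to ABCB6 between the ligands. No untreated cells were analysed here, the labels do not say whether cultures were separate, and transcript entries cannot separate isoforms.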

Other observations

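Transcripts of ABC pseudogenes were also counted, and their reads may be shared with the parent genes. ABCC6P1 averaged 20.7 ± 0.438 CPM with SGA360, 21.8 ± 2.05 with SGA315 and 9.83 ± 0.198 with lovastatin alone (SD, n = 3 each), and its log2 difference between SGA360 and SGA315 was −0.07 ± 0.0713 (edgeR quasi-likelihood F test, adjusted p = 0.47). ABCA11P averaged 8.48 ± 0.690 CPM with SGA360, 8.995 ± 0.263 with SGA315 and 7.05 ± 0.662 with lovastatin alone. It was higher with both ligands, at 0.28 ± 0.111 with SGA360 (adjusted p = 0.0249) and 0.35 ± 0.112 with SGA315 (adjusted p = 0.00421). ABCA17P averaged 4.15 ± 0.174 CPM with SGA360, 4.69 ± 0.334 with SGA315 and 4.92 ± 0.867 with lovastatin alone and was not called in any of the 3 comparisons, at −0.25 ± 0.145 with SGA360 and −0.07 ± 0.144 with SGA315. ABCC6P2, a further copy of ABCC6, averaged 1.53 ± 0.297 CPM with SGA360, 1.79 ± 0.600 with SGA315 and 1.86 ± 0.0779 with lovastatin alone and was not called either.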
